A study of Mus musculus with 24 samples.

Results

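Methyl-CpG readers are proteins that recognise cytosine methylation in the CpG dinucleotide and pass that mark on to other chromatin proteins. The 8 reader genes Mbd1, Mbd2, Mbd3, Mbd4, Zbtb4, Zbtb38, Uhrf1 and Uhrf2 were taken from the deposited count table by their Ensembl gene IDs, 8 of 37991 genes listed. All 8 had enough counts to be tested in both experiments of the study. Expression was measured by RNA sequencing in 24 libraries of mouse nucleus accumbens, in 8 groups of 3 libraries, and per the labels each library held pooled mRNA from 4 mice. The series' design text instead counts 3 mice per group, and the sources used here do not settle which holds. In either case n is a number of libraries, and whether a library stands for 1 mouse or a pool is uncertain.

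All mice had the C57BL/6J background. The wild-type experiment crossed sex with stress: females and males were kept as controls or stressed, and none was given a virus. The floxed experiment held Dnmt3a2lox/2lox mice, whose Dnmt3a gene can be cut by Cre recombinase, and every one of these mice was stressed. They carried AAV-GFP or AAV-CRE, again in females and in males, so the GFP groups were stressed floxed mice and no floxed group was unstressed. The sources used here give neither age, nor the promoter of the virus, nor the length of the stress. Uninfected cells of the punch keep Dnmt3a, and the protocol text names dorsal striatum beside the nucleus accumbens for the tissue punches.

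Dnmt3a, the de novo DNA methyltransferase targeted by Cre, was at 155 to 169 CPM in the GFP females, 140 to 155 CPM in the Cre females, 164 to 182 CPM in the GFP males and 137 to 143 CPM in the Cre males. CPM here is edgeR's library-size-scaled count, adjusted with TMM factors. Dnmt3a fell by 0.30 on the log2 scale in Cre males (SE 0.0562, edgeR adjusted p = 0.0149) and was 0.12 lower in Cre females without passing the test (log2 -0.12, SE 0.0562, adjusted p = 0.829). A count over the whole gene also holds exons outside the part that Cre removes, so it does not measure how many cells lost the gene. Total counts per library ranged between 7116123 and 12145551 for wild-type mice and between 28132563 and 59829070 for floxed mice. Medium spiny neuron markers, the main neurons of this tissue, summed to 4399 to 11290 CPM over 14 genes in the 24 libraries. The lowest sum was that of Cre male library 2, which also had 1850 CPM of Ttr, a choroid plexus gene.

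The readers fall into 3 families. Mbd1, Mbd2, Mbd3 and Mbd4 share the methyl-CpG-binding domain. Mbd1 and Mbd2 are transcriptional repressors, Mbd2 and Mbd3 are alternative subunits of the NuRD chromatin remodelling and deacetylase complex, and the mammalian Mbd3 protein binds methylated DNA poorly. Mbd4 is a DNA glycosylase that removes thymine or uracil paired with guanine at CpG sites. Zbtb4 and Zbtb38 are zinc finger repressors of the Kaiso family. Uhrf1 and Uhrf2 bind DNA through an SRA domain. Uhrf1 recognises hemimethylated CpG behind the replication fork and brings in the maintenance methyltransferase Dnmt1, so it is best known from dividing cells, whereas Uhrf2 is a related ubiquitin ligase that also occurs in non-dividing cells and binds 5-hydroxymethylcytosine.

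Promoter sequence was available in the RefSeq table of build GRCm38.p6 for 6 of the 8 readers, with Mbd1 and Mbd2 not matched. Each entry spans 300 bases around a gene start. These promoters held more CpG dinucleotides than the median of 7 over 32851 promoters. The count was 22 for Mbd3, 25 for Mbd4, 22 for Zbtb4 and 28 for Uhrf2, 12 and 33 for the 2 starts of Uhrf1, and 25, 41 and 8 for the 3 starts of Zbtb38. The Uhrf1 entries are shown because Uhrf1 had the smallest p-values of the readers for Cre in females and for sex in floxed mice, and Uhrf2 is shown beside it as the related gene. Capitals mark CCAAT and TTTNNCGC, an E2F-like motif, found on either strand. The Uhrf1 entries lie at chr17:56303087-56303386 and chr17:56304063-56304362 on the plus strand, and the Uhrf2 entry at chr19:30030263-30030562 on the plus strand.
Uhrf1, upstream start: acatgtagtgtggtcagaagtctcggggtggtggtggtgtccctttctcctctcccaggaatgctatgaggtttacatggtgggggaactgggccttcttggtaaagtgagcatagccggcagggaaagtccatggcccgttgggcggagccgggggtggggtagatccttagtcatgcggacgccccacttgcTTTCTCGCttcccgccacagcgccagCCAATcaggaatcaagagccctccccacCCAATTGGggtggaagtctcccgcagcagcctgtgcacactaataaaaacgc
Uhrf1, downstream start: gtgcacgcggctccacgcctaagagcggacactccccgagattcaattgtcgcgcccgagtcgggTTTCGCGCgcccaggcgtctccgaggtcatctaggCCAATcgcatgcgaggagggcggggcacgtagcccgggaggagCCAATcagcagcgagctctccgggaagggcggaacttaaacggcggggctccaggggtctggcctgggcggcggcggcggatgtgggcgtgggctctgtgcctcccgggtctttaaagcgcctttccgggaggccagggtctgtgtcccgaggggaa
Uhrf2: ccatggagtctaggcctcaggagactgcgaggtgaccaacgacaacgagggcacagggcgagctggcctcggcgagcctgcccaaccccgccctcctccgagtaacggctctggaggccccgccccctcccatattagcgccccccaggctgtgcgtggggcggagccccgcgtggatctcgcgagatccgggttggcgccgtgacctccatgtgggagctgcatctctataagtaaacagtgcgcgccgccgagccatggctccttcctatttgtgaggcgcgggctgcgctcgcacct

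TTTNNCGC was present once in each Uhrf1 promoter and in no other reader promoter of the table. The same letters occur in 5.17% of all promoters of this length, a share not matched for CpG content although the motif holds a CpG. CCAAT was present 3 and 2 times in the Uhrf1 promoters, 3 times in that of Mbd3 and 2 times in that of Mbd4, against 37.4% of all promoters with at least 1. No CCAAT was found in the windows of Uhrf2, Zbtb4 or Zbtb38. The motif TTTGAA, known as the CHR element of cell cycle genes and present in 17.9% of all promoters, was found in 1 of the Zbtb38 windows. Of 15 proliferating-cell genes used below, 13 had a promoter entry. Of these genes 5 held TTTNNCGC, 11 held CCAAT and 4 held TTTGAA in at least 1 entry, a count by gene and not by promoter. These matches describe the letters in the windows and are not evidence of binding.

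Levels between readers were compared as CPM per kb of merged exons, since a long gene collects more reads. Mbd3 was the most abundant reader in each of the 8 groups, with group means of 36.0 to 48.9 CPM per kb. Zbtb4 came next with group means of 14.7 to 19.0 CPM per kb followed by Mbd2 with 12.55 to 16.4 CPM per kb. The libraries of Zbtb4 and Mbd2 overlapped in 3 groups, the wild-type control females, the stressed females and the GFP males, so these neighbours were not separated there. Uhrf2, Zbtb38 and Mbd1 formed a middle tier between 4.64 and 8.57 CPM per kb. In the floxed groups Uhrf2 led this tier without overlap (7.74 to 8.57 CPM per kb), and Zbtb38 and Mbd1 overlapped. In 3 of the 4 wild-type groups Zbtb38 led it instead, and its libraries overlapped those of Uhrf2 in each of the 4 wild-type groups. The experiments differ in genotype, virus, stress and depth at once, so this shift between them cannot be told apart from those factors. Mbd4 was seventh in every group (1.70 to 2.92 CPM per kb) and Uhrf1 last (0.396 to 0.832 CPM per kb), with no overlap between them. With the longest transcript as the length, Mbd3 stayed first and Uhrf1 last in each group, but Mbd2 moved above Zbtb4 in each group. Uhrf2 moved above Zbtb4 in the 4 floxed groups. On that length Uhrf2 lay above Zbtb38 in each of the 8 groups, so their shift between the experiments was seen with merged exons only.

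**Figure D1:**
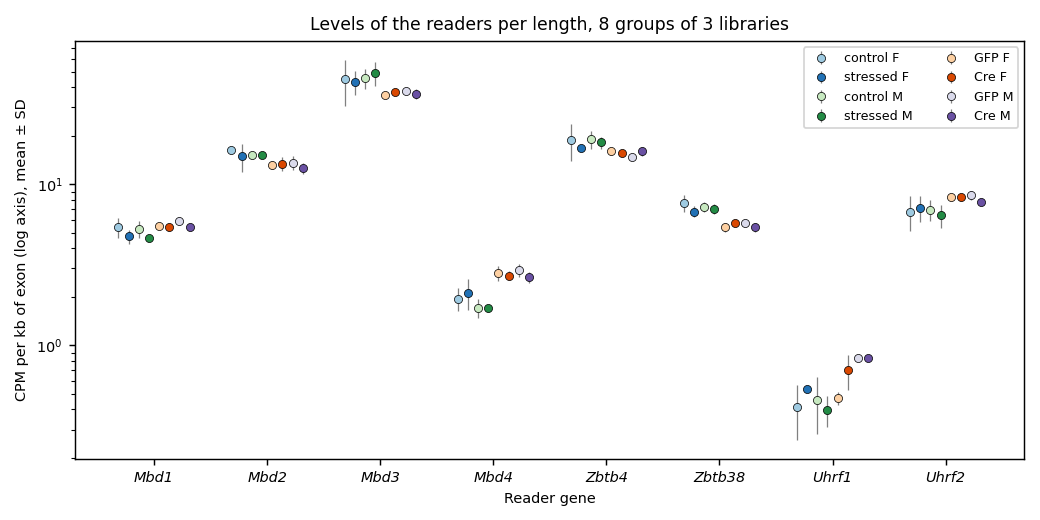
Group means of the 8 readers in CPM per kb of merged exons (log axis) with bars of 1 SD over 3 libraries, one colour per group. Mbd3 lies at 36.0 to 48.9 CPM per kb in every group, and Uhrf1 lies below 1 CPM per kb in every group.

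Ratios between related readers, per kb of merged exons, show the same spread in another way, and their size depends on that length. In control females Mbd3 and Mbd2 had 45.03 and 16.35 CPM per kb of merged exons but 53.84 and 26.9 per kb of longest transcript, a smaller ratio. In GFP females Uhrf2 and Uhrf1 had 8.387 and 0.4683 by the first length but 20.37 and 0.5562 by the second, a larger ratio. Mbd3 exceeded Mbd2, its alternative in NuRD, by 2.73-fold to 3.2-fold per length in the group means, and the ranges of the 8 groups overlapped. Zbtb4 exceeded Zbtb38 by 2.46-fold to 2.97-fold. Uhrf2 exceeded Uhrf1 by 18 ± 1.91 times in GFP females and by 10.3 ± 0.392 times in GFP males (SD, n = 3), and these groups did not overlap. The share of all genes without overlap between these 2 groups was not counted. Uhrf2 was at 72.04 and 73.64 CPM in these groups and Uhrf1 at 1.99 and 3.54 CPM, so this ratio restates the Uhrf1 levels. The ratio of Uhrf2 to Uhrf1 was 12.3 ± 2.78 in Cre females and 9.33 ± 0.373 in Cre males.

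Within an experiment Uhrf1 was also the most variable reader, with a coefficient of variation over 12 libraries of 26.9% for wild-type and 24.5% for floxed mice. The other 7 readers had 4.42% to 8.56% in the floxed libraries, the lowest being Mbd3. In the wild-type libraries they had 9.06% to 18.5%, and there Mbd3 had the highest of the 7. Uhrf1 rests on 10 to 26 counts per wild-type library and 61 to 223 per floxed library, against 72 or more for each other reader in any library.

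**Figure D2:**
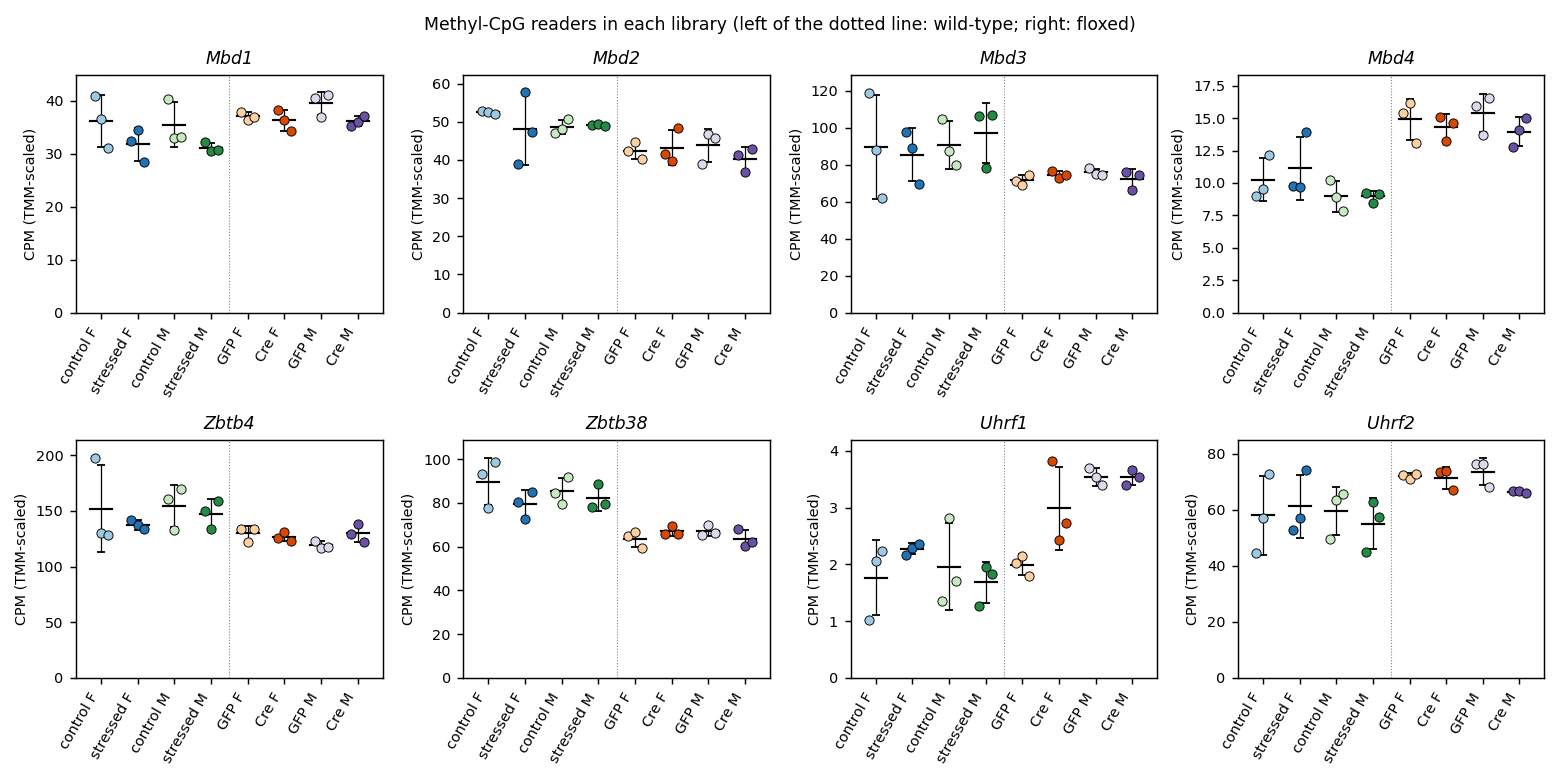
CPM of each reader in each of the 24 libraries (points), with the group mean (bar) and SD, wild-type groups left of the dotted line. Uhrf1 in the floxed experiment lies at 1.80 to 2.16 CPM in GFP females and at 2.42 CPM or more in every other floxed library.

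In wild-type mice, none of the 8 readers passed the test for stress. No reader had an adjusted p below 0.05 in females, in males or averaged over the sexes, where the whole table had 0%, 0.00656% and 0.0131% of 15249 tested genes called. At an unadjusted p below 0.05 none of the 8 was found either, against 1.68%, 2.81% and 3.21% of all genes. Log2 differences ran from -0.19 for Mbd1 to 0.36 for Uhrf1 in females and from -0.21 for Uhrf1 to 0.10 for Mbd3 in males. SEs were 0.128 to 0.354. The widest 95% intervals were those of Uhrf1, -0.40 to 1.13 in females and -0.98 to 0.55 in males, so at its depth of 10 to 26 counts per library changes of this size were not detectable. The difference of the stress effect between the sexes was called for 0% of genes, with 1.19% at an unadjusted p below 0.05, and for none of the readers by either rule. Uhrf1 had the largest such difference (log2 0.57, SE 0.501, 95% interval -0.51 to 1.65, adjusted p = 1).

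Mbd1, the repressor that also recruits histone methyltransferase partners, was lower in stressed than in control mice in the means of both sexes without passing the test. In females it was at 40.95, 36.5 and 31.0 CPM in the controls and 32.5, 34.5 and 28.4 CPM in the stressed libraries. The female groups overlapped. In males it was at 40.4, 32.9 and 33.2 CPM in the controls and 32.2, 30.5 and 30.7 CPM in the stressed libraries, so every stressed male library lay below every control. Of all genes, 7.91% showed such separation in males and 5.3% in females, where no reader did. The log2 difference of Mbd1 was -0.19 in males (SE 0.142, adjusted p = 1) and -0.19 averaged over the sexes (SE 0.101, unadjusted p = 0.0861, adjusted p = 1). The control males were uneven in choroid plexus RNA, with Ttr at 8.35, 958 and 2280 CPM against 115, 34.2 and 140 CPM in the stressed males. The 11 choroid plexus and ependyma genes summed to 186 to 4709 CPM in control and 261 to 400.3 CPM in stressed males. In females, 9 of 11 tested cortical neuron genes were on the lower side with stress and 2 on the higher (median log2 -1.09, 0 called). Of 10 tested choroid plexus and ependyma genes, 9 were on the higher side and 1 on the lower (median log2 0.457, 0 called). The part of these marker genes' RNA in the Mbd1 and other reader values was not tested.

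The other members of the MBD family overlapped between control and stressed libraries in both sexes. Mbd2 was the steadiest in males, at 46.95, 48.2 and 50.65 CPM in the controls and 49.0, 49.4 and 48.8 CPM in the stressed libraries. In females the stressed libraries of Mbd2 spread from 38.9 to 57.8 CPM around the controls at 52.1 to 52.8 CPM. The glycosylase gene Mbd4 was at 9.02, 9.57 and 12.2 CPM in control females and 9.75, 9.69 and 13.9 CPM in stressed females, with library 3 highest in both groups. Among the Kaiso family, Zbtb4 reached 197.5 CPM in control female library 1, against 128 to 170 CPM in the other wild-type libraries. Zbtb38 ranged from 72.5 to 98.5 CPM over the 12 wild-type libraries, with overlap in both sexes.

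Mbd3 and Uhrf2 followed a pattern across the wild-type libraries that was not that of the groups. Mbd3 was at 118.5, 88.1 and 61.9 CPM in control females 1 to 3 and at 97.5, 88.85 and 69.4 CPM in stressed females 1 to 3. Uhrf2 ran the other way, at 44.5, 57.0 and 72.6 CPM in control females and 52.7, 57.2 and 74.0 CPM in stressed females. In both female groups library 1 had the highest Mbd3 and the lowest Uhrf2 level, and library 3 the lowest Mbd3 and the highest Uhrf2 level. In males Mbd3 was at 104.6, 87.3 and 79.8 CPM in controls and 106, 78.2 and 106.9 CPM in stressed libraries. Uhrf2 was at 49.7, 63.5 and 65.5 CPM in control males and 45.02, 62.6 and 57.6 CPM in stressed males.

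An index of base composition moved with the Mbd3 and Uhrf2 values. For each library this index was taken as the median centred log2 level of genes with transcripts of at least 54.4% GC minus that of genes at or below 44.9% GC. The index ran from -0.56 to 0.59 in the wild-type and from -0.20 to 0.091 in the floxed libraries. Mbd3, whose transcripts are 62.9% GC, had Pearson r = 0.906 with the index over the 12 wild-type libraries, and Uhrf2, at 47.2% GC, had r = -0.884. Mbd3 and Uhrf2 had r = -0.916 with each other over the wild-type libraries and 0.336 over the floxed ones. The points share library preparation and depth within a library, and these values are descriptions without a test. Zbtb4 (r = 0.711), Mbd1 (0.68) and Uhrf1 (-0.668) also moved with the index in the wild-type libraries. Mbd2, Mbd4 and Zbtb38 stayed between -0.36 and -0.228. The sign of r did not follow GC content for every reader. Mbd2, at 56.5% GC, had r = -0.285 and Uhrf1 was at 53.6% GC, whereas Mbd1 was at 50.2% GC. Over the 12 floxed libraries r with the index ran from -0.519 for Uhrf2 to 0.466 for Zbtb4, with Mbd3 at 0.2.

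**Figure D3:**
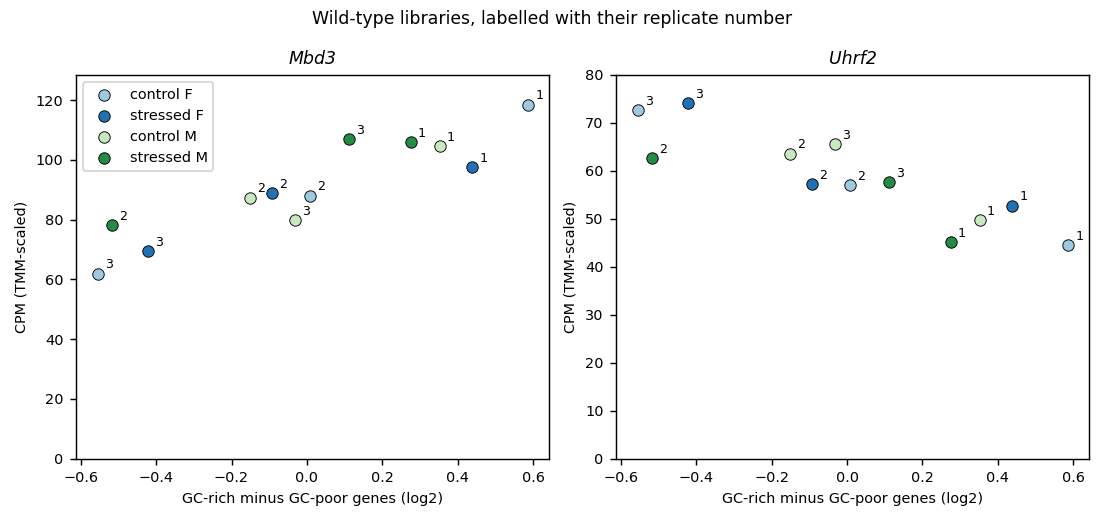
CPM of Mbd3 (left) and Uhrf2 (right) in the 12 wild-type libraries against the GC index (log2), with each library's number beside its point and one colour per group. Between the lowest and the highest index Mbd3 goes from 61.9 to 118.5 CPM and Uhrf2 from 72.6 to 44.5 CPM, while control and stressed libraries are mixed.

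Female and male wild-type mice did not differ in any reader by the test. The whole table had 0.0393% of genes called and 5.03% at an unadjusted p below 0.05, and no reader met either threshold. Mbd4 came nearest, with a log2 difference of 0.25 (female over male, SE 0.135, unadjusted p = 0.0862, adjusted p = 0.971). The 95% interval was -0.041 to 0.54.

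In floxed females given Cre, none of the 8 readers was called, as was the case for every tested gene (0% of 17597 by edgeR, with 5.96% at an unadjusted p below 0.05). DESeq2 called 32 genes in this comparison and limma-voom 0. Uhrf1 was the 1 reader at an unadjusted p below 0.05 and the 1 reader whose groups did not overlap, where 11.5% of all genes did not overlap. Uhrf1 was at 2.03, 2.16 and 1.80 CPM in GFP females and at 3.82, 2.42 and 2.72 CPM in Cre females. The log2 difference was 0.59 (SE 0.167, 95% interval 0.22 to 0.95, unadjusted p = 0.00442, adjusted p = 0.63), and it was 0.37 to 0.71 when each library was left out in turn. The other 7 readers differed by -0.055 to 0.078 on the log2 scale, with all groups overlapping.

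In floxed males Uhrf1 was level between the viruses, at 3.71, 3.53 and 3.39 CPM with GFP and 3.40, 3.66 and 3.55 CPM with Cre. The log2 difference was -0.0014 (SE 0.161, 95% interval -0.35 to 0.35, adjusted p = 0.996). The difference of the Cre effect between the sexes was 0.59 (SE 0.232, 95% interval 0.081 to 1.09, unadjusted p = 0.0266, adjusted p = 0.232). It was not called, and Uhrf1 was the 1 reader below an unadjusted p of 0.05 in this comparison, where 0.0114% of genes were called and 17.5% had an unadjusted p below 0.05. Averaged over the sexes Uhrf1 had a log2 difference of 0.29 (SE 0.116, adjusted p = 0.279), again the 1 reader of 8 at an unadjusted p below 0.05, against 1.42% of genes called and 14.2% at an unadjusted p below 0.05.

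Between the sexes in the floxed experiment, Uhrf1 was lower in females by 0.53 on the log2 scale, averaged over the viruses, without passing the test (log2 -0.53, SE 0.116, 95% interval -0.79 to -0.28, unadjusted p = 0.00066, adjusted p = 0.243). It ranked 44th by p among 17597 genes, of which 0.0682% were called and 6.68% had an unadjusted p below 0.05, and it was the 1 reader below that level. DESeq2 gave it an adjusted p of 0.0357, which was the 1 called value of a reader among all alternatives run. Over all alternatives the adjusted p ranged from 0.0357 to 0.587. GFP females lay below all GFP males, whereas Cre female library 1, at 3.82 CPM, lay above all male libraries. Group means were 1.99 CPM in GFP females against 3.54 in GFP males, and 2.99 in Cre females against 3.54 in Cre males. The Uhrf1 results for Cre in females, averaged over the sexes and by sex use the same GFP female libraries, so they are not independent of this one. In the wild-type experiment Uhrf1 was 0.15 higher in females (SE 0.251, adjusted p = 1), with 1.01 to 2.37 CPM in females and 1.28 to 2.82 CPM in males.

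Genes of proliferating cells moved beside Uhrf1 in the floxed libraries. The 15 genes of this list, among them Mki67 and Pcna, summed to 79.8, 90.2 and 79.1 CPM in GFP females, 100.7, 86.15 and 95.8 CPM in Cre females, 98.4, 95.2 and 100.2 CPM in GFP males and 97.8, 96.9 and 105.7 CPM in Cre males. The lowest sums were those of GFP female libraries 1 and 3, and Cre female library 2 lay below GFP female library 2. All 15 were on the lower side in females against males (median log2 -0.45, 0 called), where the median over all tested genes was -0.0012. In Cre females all 15 were on the higher side (median log2 0.29, 0 called), against 0.00015 over all tested genes. In Cre males, where Uhrf1 was level, 10 were higher and 5 lower (median 0.168). For stress in wild-type females, where Uhrf1 differed by 0.36, 4 of 12 tested were higher and 8 lower (median -0.0976). Between the wild-type sexes, where Uhrf1 was 0.15 higher in females, 10 were higher and 2 lower (median 0.153). Uhrf1 had r = 0.908 with the sum over the 12 floxed libraries and 0.539 over the 12 wild-type libraries. The other readers had -0.53 to 0.284 in the floxed libraries. In the wild-type libraries they had -0.674 for Zbtb4 to 0.35 for Uhrf2, so the value of Uhrf1 did not stand out there. Uhrf1 also had r = -0.633 with the medium spiny neuron sum and 0.591 with a sum of astrocyte genes in the wild-type libraries. These correlations are over libraries that share groups and depth and carry no test, and the part of dividing cells in the Uhrf1 values was not tested. In bulk tissue fewer cells of a type and less RNA per cell cannot be told apart.

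**Figure D4:**
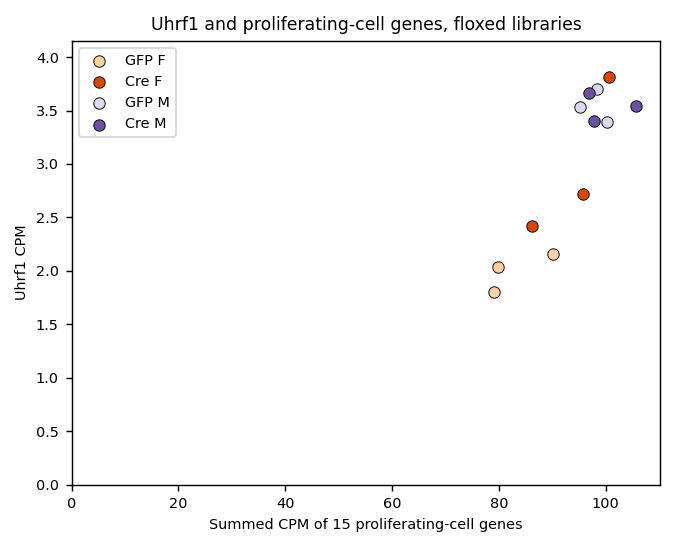
Uhrf1 CPM against the summed CPM of 15 proliferating-cell genes in the 12 floxed libraries, one colour per group. The 3 GFP female libraries lie lowest on the Uhrf1 axis at 1.80 to 2.16 CPM, and Cre female library 1 lies highest at 3.82 CPM.

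In floxed males given Cre no reader was called, in a comparison where 4.96% of all genes were called. At an unadjusted p below 0.05 there were 3 of 8 readers, Uhrf2, Mbd1 and Zbtb4, against 24.8% of all genes, and 1 of 8 did not overlap, against 29.4%. Uhrf2 was at 76.3, 76.5 and 68.1 CPM with GFP and at 66.8, 66.6 and 65.9 CPM with Cre, so all Cre libraries lay below all GFP libraries by a narrow margin. Its log2 difference was -0.15 (SE 0.0543, 95% interval -0.27 to -0.029, unadjusted p = 0.0192, adjusted p = 0.127), and the adjusted p was 0.0909 to 0.473 over all alternatives. Mbd1 was at 40.5, 37.05 and 41.2 CPM with GFP and 35.3, 36.0 and 37.2 CPM with Cre (log2 -0.13, SE 0.0557, adjusted p = 0.172). The groups overlapped, as Cre library 3 lay above GFP library 2. Zbtb4 was the 1 reader on the higher side, at 123.2, 116.4 and 117.6 CPM with GFP and 129.4, 138 and 122.3 CPM with Cre (log2 0.13, SE 0.0572, adjusted p = 0.197).

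The Cre males had more RNA of cortical neuron and choroid plexus marker genes than the GFP males. Virus and these markers changed together, so tissue in the punch and a change with Cre cannot be told apart. The GC index also lay higher in Cre males, at 0.034 to 0.091 against -0.20 to -0.0039 in GFP males. It cannot be told apart from virus either. Slc17a7, the vesicular glutamate transporter of cortical excitatory neurons, was at 428, 408 and 168 CPM in Cre males and 1.29, 2.76 and 15.3 CPM in GFP males. The 12 cortical genes summed to 866 to 1245 CPM in Cre males and 627 to 725 CPM in GFP males, with none of the 12 at 0 in any of these libraries. The 11 choroid plexus and ependyma genes summed to 233.5 to 3290 CPM in Cre males and 176 to 211 CPM in GFP males. Of the 12 cortical genes 10 were on the higher side and 2 on the lower, and 9 were called (median log2 difference 4.1). Of the choroid plexus and ependyma genes 10 were tested, 9 higher and 1 lower, and 0 were called (median 2.06). Medium spiny neuron genes were on the lower side for 14 of 14 (median log2 -0.32, 0 called). Over the 12 floxed libraries Uhrf2 had r = -0.681, Mbd1 r = -0.615 and Zbtb4 r = 0.426 with the cortical sum. With the medium spiny neuron sum Zbtb4 had r = -0.704, Uhrf2 0.272 and Mbd1 0.167. Such values were not particular to these readers, as Mbd2 had r = 0.728 and Mbd3 0.656 with the medium spiny neuron sum. The part of this RNA in the reader values was not tested. The other 5 readers differed by -0.14 to -0.0014 in Cre males, and none of their groups separated. Mbd2 was at 38.95, 46.9 and 45.6 CPM with GFP and 41.2, 36.8 and 42.9 CPM with Cre. Mbd3 stayed at 74.2 to 77.96 CPM with GFP and 66.5 to 76.1 CPM with Cre, its lowest value being that of Cre library 2. Mbd4 was at 13.7 to 16.5 CPM with GFP and 12.8 to 15.03 CPM with Cre, and a gene model on the opposite strand, Gm44206, overlaps its exons.

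**Figure D5:**
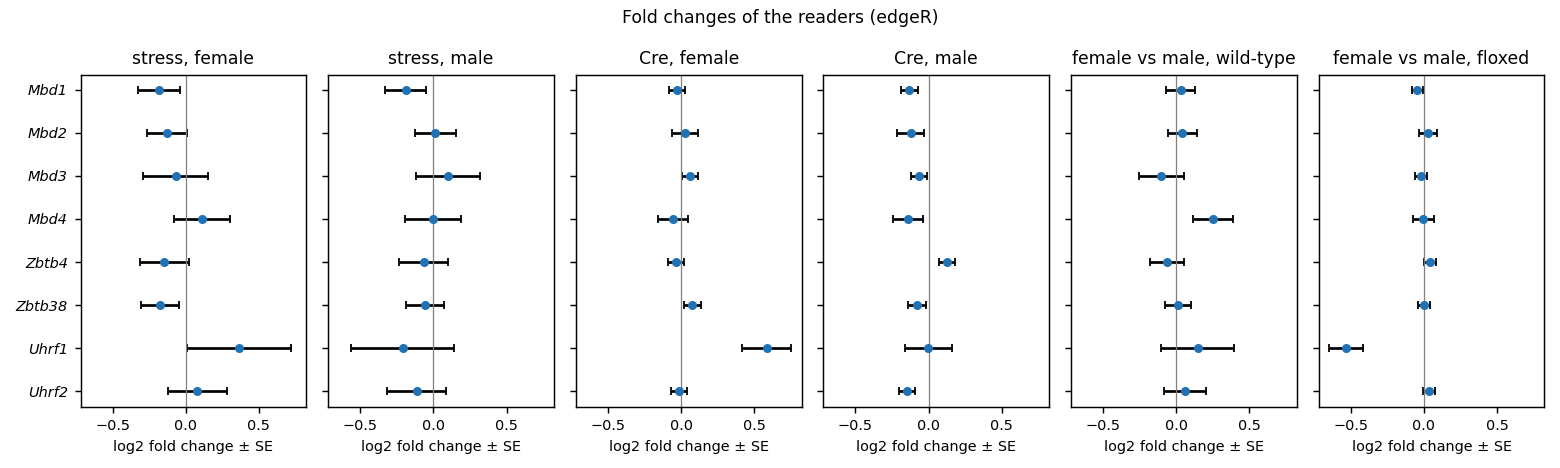
Log2 fold changes of the 8 readers in 6 comparisons from edgeR, points with bars of 1 SE. Uhrf1 lies at 0.59 for Cre in females and at -0.53 for females against males in the floxed experiment, and the other readers lie between -0.19 and 0.25 in all 6 panels.

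The other genes of the pathway were described from 5 lists. Among 13 DNA methylation writers and erasers, 11 were tested for wild-type and 12 for floxed mice. None was called for stress or sex in either experiment, where at most 0.0682% of all genes were called. In Cre males 2 of the 12 fell, in a comparison with 4.96% of all genes called: Dnmt3a as above and Tet2, a dioxygenase that oxidises 5-methylcytosine. Tet2 was at 83.6, 84.9 and 81.9 CPM with GFP and 69.5, 68.6 and 69.1 CPM with Cre, without overlap (log2 -0.27, SE 0.0538, adjusted p = 0.0185). These are the males with more cortical marker RNA, whose part here was not tested. The call of Tet2 was lost when Cre male library 1 or 2 or any GFP male library was left out, and that of Dnmt3a without GFP male library 1 or 3, with adjusted p up to 0.0775 and 0.0583. Averaged over the sexes, where 1.42% of all genes were called, Dnmt3a fell by 0.21 (SE 0.0397, adjusted p = 0.026) and Gadd45b, a stress-inducible gene linked to active demethylation, rose (log2 0.58, SE 0.126, adjusted p = 0.0487). Gadd45b was at 3.95, 6.46 and 5.54 CPM in GFP females, 6.45, 9.09 and 8.74 CPM in Cre females, 4.21, 4.68 and 4.56 CPM in GFP males and 6.75, 5.86 and 7.18 CPM in Cre males. The male groups separated and the female groups overlapped, with the lowest Cre library at 6.45 and the highest GFP library at 6.46 CPM. Of 12 fits with 1 library left out, 4 kept the averaged call of Dnmt3a (adjusted p up to 0.0758) and 2 that of Gadd45b (up to 0.135), the latter where Cre female library 1 or Cre male library 2 was removed. The averaged call of Gadd45b was also lost with other size factors (adjusted p = 0.0515), limma-voom (0.0682) and the replicate block (0.0576), and that of Dnmt3a with the replicate block (0.0689). With the GC index as a covariate, a fit added after seeing the data, none of these 4 calls of Dnmt3a, Tet2 and Gadd45b remained (adjusted p 0.167 to 0.568). For stress averaged over the sexes, the smallest p in this list were those of Gadd45g (log2 -0.46, SE 0.184) and Gadd45b (log2 -0.42, SE 0.172), both with an adjusted p of 1.

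The partners of the readers gave no calls. None of 13 tested NuRD genes was called in any of the 10 comparisons, which covers the deacetylases Hdac1 and Hdac2 and the remodelling ATPases Chd3, Chd4 and Chd5. Of all tested genes 0% to 4.96% were called in these comparisons, so a count of 0 in lists of this size lies near that share. Their median log2 difference was -0.027 for stress averaged over the sexes, where the median of all genes was -0.0048. For Cre averaged over the sexes it was 0.034, where that of all genes was 0.0034. Hdac1 had the smallest p for stress (log2 0.26, SE 0.105, adjusted p = 1) and Mta1 for Cre (log2 0.091, SE 0.0377, adjusted p = 0.299). Of 21 other corepressors and partners, 0 were called in any of the 10 comparisons. Their medians were -0.012 for stress and -0.016 for Cre, beside the same -0.0048 and 0.0034 of all genes. Ncor1, the corepressor that partners Zbtb33, had the smallest p for stress (log2 -0.18, SE 0.0901, adjusted p = 1). Atf7ip, a partner of Mbd1, had it for Cre (log2 -0.11, SE 0.0354, adjusted p = 0.192).

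Of 9 other MBD-fold and Kaiso-family genes, 7 were tested in each experiment and 0 were called in any comparison, against 0% to 4.96% of all genes. The medians were -0.10 for stress and -0.021 for Cre, averaged over the sexes, where those of all genes were -0.0048 and 0.00335. Mbd6 had the smallest p in both, with a log2 difference of -0.35 for stress (SE 0.186, adjusted p = 1) and 0.16 for Cre (SE 0.0674, adjusted p = 0.316). All 12 base excision repair genes, the pathway that completes the repair begun by Mbd4, were tested and 0 were called, against the same shares of all genes. The medians were -0.12 for stress and -0.0085 for Cre. Lig3, a DNA ligase, had the smallest p for stress (log2 -0.11, SE 0.0803, adjusted p = 1). Parp1, a sensor of DNA breaks, had it for Cre (log2 0.11, SE 0.0437, adjusted p = 0.267).

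The genes most like each reader were taken as those with the highest Pearson r over the 24 libraries, on log2 CPM centred within each experiment, among 12944 genes. These values describe libraries that share group, depth and base composition. The closest gene to Mbd3 was Eef2, an elongation factor of translation (r = 0.959), and then Atp6v0e2 (0.948), and that to Uhrf2 was Ralgapb (0.956), followed by Csrnp3 (0.934). With Mbd3, Eef2 had r = 0.974 over the wild-type libraries and 0.645 over the floxed ones, and Atp6v0e2 had 0.981 and 0.315. Ralgapb and Csrnp3 kept r = 0.828 and 0.867 with Uhrf2 in the floxed libraries. Zbtb4 was nearest to Nucb1 (0.903) and Pacsin1 (0.886), and Zbtb38 to Plppr4 (0.828) and Rbm27 (0.78). Mbd1 was nearest to Nr1d1, a circadian repressor (0.851), with r = 0.878 over the wild-type libraries and 0.778 over the floxed ones. A gene without a symbol came next to Mbd1 (0.825). Mbd2 was nearest to Nme7 (0.744) and mt-Co2 (0.739), the lowest first values of the 8. Mbd4 was nearest to 4930570G19Rik (0.819) and Shcbp1l (0.808). Uhrf1 was nearest to Mtbp (0.83) and Hmgb2 (0.789), a chromatin protein abundant in dividing cells, and Hmgb2 had r = 0.904 with it in the floxed libraries.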

How the data were processed

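The authors deposited raw counts per Ensembl gene for all 24 libraries. The submitters' processing notes name TopHat2 2.0.9, Bowtie2 2.1.0 and HTSeq 0.6.0, with builds NCBIM37 and mm9. Whether reads were counted by strand is not given in the sources used here. Symbols and exon lengths came from GENCODE M21, a later build, for 32919 IDs, with 5072 unmatched, so gene coordinates are not given except for RefSeq promoters.

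Each experiment was fitted apart in R 4.3.3 with edgeR 4.0.16 (filterByExpr, TMM scaling, robust quasi-likelihood F test, 1 mean per group). Benjamini-Hochberg adjustment ran over every tested gene, 15249 wild-type and 17597 floxed, with calls at adjusted p below 0.05. The fit was run on simulated counts, with the requirement that median log2 differences lie near those put in. The simulation held no GC or replicate trend, so it does not speak to calls where such trends occur. Alternatives used DESeq2 1.42.0, limma 3.58.1 (voom), other size factors, no filter, a replicate block, 2 groups alone and each library left out. Fits with the GC index as a covariate were added after seeing the data. The members and gene lists were chosen with earlier results of these data known. Named genes were the 8 readers, Dnmt3a, called members of the pathway lists up to 4 per comparison, otherwise the members of smallest p for effects averaged over the sexes, and the 2 likest genes of each reader.

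Same-numbered control and stressed libraries deviated together in wild-type females (r = 0.566, 0.335 and 0.483). Whether the numbers pair these libraries was not tested, and the main fits did not pair them. In wild-type males r was 0.298, 0.206 and 0.0886, and in the floxed groups -0.455 to 0.081. For each wild-type control library, of either sex, the stressed library of the same number had the highest r. The labels state no shared day or batch.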

Additional observations from a re-analysis of the deposited data

How the results depend on the processing

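The count of readers called stayed at 0 in all 10 comparisons under every alternative except for sex in floxed mice, where DESeq2 called 1 of 8 readers, Uhrf1. Of 80 reader values 47 lay within 1 SE of 0. A sign change was seen for 42 of the 80, of which 37 lay within 1 SE of 0, and it occurred in 121 of 1552 alternative values, none of them called. The order of the readers per length kept 34 of 64 places with the longest transcript and 60 to 64 when a library was left out. The replicate block changed no call of a reader. Its sign change is given below with the others.

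With DESeq2 the sign changed for Mbd1 for stress by sex (-0.00084), Mbd4 for stress in males (0.0065) and Zbtb38 for sex in floxed mice (0.0030). With other size factors the sign changed for Mbd4 for stress in males (0.00068) and Zbtb38 for sex in floxed mice (0.0011). Without a filter the sign changed for Mbd1 for stress by sex (-0.027), Mbd4 for stress in males (0.012), Uhrf1 for Cre in males (0.0023), Zbtb38 for Cre averaged over the sexes (0.0021) and Zbtb38 for sex in wild-type mice (-0.0025). With limma-voom the sign changed for Mbd4 for stress in males (0.0099) and Uhrf1 for Cre in males (0.0069). With the 2 groups alone the sign changed for Mbd4 for stress in males (0.0039). With the replicate block the sign changed for Mbd4 for stress in males (0.0015). With the GC index as covariate the sign changed for Mbd1 for stress by sex (-0.0077), Mbd2 for Cre averaged over the sexes (0.020), Uhrf1 for Cre in males (0.022), Zbtb38 for Cre in males (0.012), Zbtb38 for Cre averaged over the sexes (0.069) and Zbtb38 for sex in floxed mice (0.0028). With the replicate block and the GC index the sign changed for Mbd1 for stress by sex (-0.00014), Mbd2 for Cre by sex (-0.053), Mbd2 for Cre in males (0.29), Mbd2 for Cre averaged over the sexes (0.26), Mbd3 for Cre averaged over the sexes (0.0071), Mbd3 for stress in females (0.011), Mbd4 for stress in males (0.052), Zbtb38 for Cre in males (0.11), Zbtb38 for Cre averaged over the sexes (0.14), Zbtb38 for sex in floxed mice (0.0044), Zbtb4 for Cre in males (-0.035) and Zbtb4 for Cre averaged over the sexes (-0.076). In males the GC index was -0.20 to -0.0039 with GFP and 0.034 to 0.091 with Cre, so index and virus overlap in what they fit. When a library was left out, signs changed as follows, in log2. For stress in females the range was -0.28 to 0.0026 for Mbd2, -0.27 to 0.19 for Mbd3, -0.078 to 0.25 for Mbd4, -0.083 to 0.27 for Uhrf2 and -0.25 to 0.086 for Zbtb4. For stress in males the range was -0.0097 to 0.055 for Mbd2, -0.085 to 0.10 for Mbd4, -0.41 to 0.13 for Uhrf1, -0.23 to 0.014 for Uhrf2, -0.11 to 0.011 for Zbtb38 and -0.16 to 0.016 for Zbtb4. For stress averaged over the sexes the range was -0.13 to 0.0085 for Mbd2, -0.083 to 0.15 for Mbd3, -0.040 to 0.13 for Mbd4, -0.056 to 0.24 for Uhrf1, -0.10 to 0.084 for Uhrf2 and -0.16 to 0.017 for Zbtb4. For stress by sex the range was -0.10 to 0.087 for Mbd1, -0.38 to 0.073 for Mbd3, -0.077 to 0.25 for Mbd4 and -0.20 to 0.14 for Zbtb4. For sex in wild-type mice the range was -0.026 to 0.080 for Mbd1, -0.037 to 0.11 for Mbd2, -0.047 to 0.13 for Uhrf2 and -0.032 to 0.052 for Zbtb38. For sex in floxed mice the range was -0.017 to 0.061 for Mbd2, -0.046 to 0.0014 for Mbd3, -0.039 to 0.037 for Mbd4 and -0.018 to 0.026 for Zbtb38. For Cre in females the range was -0.073 to 0.012 for Mbd1, -0.062 to 0.078 for Mbd2, -0.14 to 0.0078 for Mbd4 and -0.044 to 0.030 for Uhrf2. For Cre in males the range was -0.033 to 0.031 for Uhrf1. For Cre averaged over the sexes the range was -0.024 to 0.022 for Mbd3 and -0.028 to 0.017 for Zbtb38.

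Over all genes, the number called moved by more than 1.5 times in several comparisons. For stress in females edgeR called 0, DESeq2 2, no filter 5, and the replicate block 5. For stress in males edgeR called 1, DESeq2 4, no filter 3, the block 4, voom 0 and the 2 groups alone 0. For stress averaged over the sexes edgeR called 2, DESeq2 12, no filter 12 and the block 13. For sex in wild-type mice edgeR called 6, DESeq2 13 and no filter 14. For Cre in males edgeR called 872, DESeq2 1757, the 2 groups alone 551, the block 191, and 93 without GFP male library 2. For Cre averaged over the sexes edgeR called 249, DESeq2 642, the block 34, and 17 without GFP male library 2. For Cre by sex edgeR called 2, DESeq2 612, no filter 43, and 500 without Cre male library 3. For sex in floxed mice edgeR called 12, DESeq2 87, and 92 without Cre male library 3. With the GC index as a covariate, added after seeing the data, the calls became 0 for Cre in males, averaged over the sexes and by sex, 11 for stress averaged over the sexes and 26 for sex in wild-type mice. In the floxed groups same-numbered libraries did not deviate together (r = -0.455 to 0.081). The cause of these differences was not tested. Depth limits Uhrf1 most, at 10 to 26 counts per wild-type library.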
